A study of Mus musculus with 2 samples.

Results

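The genes that make cholesterol and fatty acids were examined in 2 areas of the embryonic mouse brain, the subventricular zone (SVZ) and the cortex. The 31 genes were chosen by name, from the enzymes of cholesterol synthesis (18 genes), the enzymes of fatty acid synthesis, desaturation and elongation (9 genes) and the sterol-sensing system that controls both pathways (4 genes), out of 24411 genes listed. Areas of stained sections of fresh-frozen brain at embryonic day 16.5 were cut out with a laser (laser capture microdissection, LCM) and their RNA was sequenced in bulk. The SVZ and the cortex each gave 1 library, so no difference between the areas has a replicate check and no test was possible. The brains carried no treatment or engineered allele that the labels name, while strain, sex and the number of animals behind each library were not stated. Values are reads per 1000000 gene-assigned reads (CPM), ratios are SVZ CPM over cortex CPM on a log2 scale, and the interval after a ratio is an exact Clopper-Pearson 95% interval. The intervals cover counting error only. They treat each read as independent, which PCR copies are not, so they are too narrow where such copies are present.

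Cholesterol is built from acetyl-CoA through mevalonate, squalene and lanosterol, and the brain, once its barrier has formed, makes nearly all of its own because plasma lipoproteins do not cross the blood-brain barrier. Fatty acids are built from the same acetyl-CoA, and dividing progenitors and growing axons both need the membrane lipids that come from these pathways. The transcription factors SREBP1 and SREBP2 switch the enzymes on. They are held in the endoplasmic reticulum by SCAP and the INSIG proteins when sterols are plentiful and are released when sterols run low.

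Gene-assigned reads numbered 51435667 in the SVZ library against 22050693 in the cortex library, so that a single read was worth 0.0194 CPM and 0.0454 CPM respectively. Cell type markers separated the libraries in the direction of their labels. All 9 progenitor markers were higher in the SVZ library (summed level 6756 CPM against 130 CPM in the cortex library), as were all 6 markers of dividing cells (1511 against 26.3 CPM). All 8 neuronal markers were higher in the cortex library (3171 CPM in the SVZ library, 8543 CPM in the cortex library), so that neuronal transcripts were also abundant in the SVZ library. Among other cell types, the 6 astrocyte markers summed to 1085 and 10.1 CPM, most of the SVZ sum being *Aldoc* (1013 CPM). *Aqp4*, *Gfap* and *Aldh1l1* had 0 reads in the cortex library, but *Aqp4* and *Gfap* were also low in the SVZ library (3.73 and 2.04 CPM). The 5 choroid plexus markers summed to 248 and 2.27 CPM, of which *Ttr* gave 240 and 0.726 CPM. *Folr1* and *Otx2* had 0 reads in the cortex library, and the interval of *Aqp1* spanned 0. The 6 microglial markers, all higher in the SVZ library, summed to 57.9 and 6.21 CPM. The 6 oligodendrocyte lineage markers, of which 1 was higher in the SVZ library, summed to 18.5 and 24.5 CPM. The 6 blood vessel markers, of which 3 were higher in the SVZ library, summed to 72.8 and 62.1 CPM. The 6 erythroid markers summed to 20.1 and 10.6 CPM, and their 4 globin genes were listed at 0 reads in both libraries. The 5 meningeal markers summed to 4.26 and 6.30 CPM, with *Col1a1* at 0 reads in the SVZ library. Their part in the ratios below was not tested, and fewer cells of a type cannot be told apart from less RNA per cell in bulk samples.

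In contrast to these markers, the lipid synthesis genes were close to balanced. Together the 31 genes took 4141 CPM of the SVZ library (213000 reads) and 4064 CPM of the cortex library (89610 reads). An average level of 10 CPM or more was reached by 30 of the 31 genes, *Scd1* being the exception, and by 9027 genes in all. Of the 30, 16 were higher in the SVZ library by any amount, or 53.3% against 55.2% of all 9027 genes. The counting interval lay above equal CPM for 15 of the 30 (background 49.8%) and below it for 12 (background 39.5%). Higher in the SVZ library by 2-fold or more were 3 genes, *Idi1*, *Elovl5* and *Srebf1*, where the background was 14.9% of genes, and *Srebf1* alone passed 4-fold, where the background was 6.75%. Higher in the cortex library by 2-fold or more were 0 genes, against a background of 12.3%, but *Acaca* and *Elovl6* lay just short of 2-fold. Under TMM, upper-quartile and DESeq2 scaling both passed it, while *Idi1* fell short (log2 ratios of 0.94, 0.93 and 0.94), which left 2 genes on each side. The median log2 ratio of the 31 genes was 0.09, beside a median of 0.10 and quartiles of -0.46 and 0.61 over all 9027 genes.

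**Figure D1:**
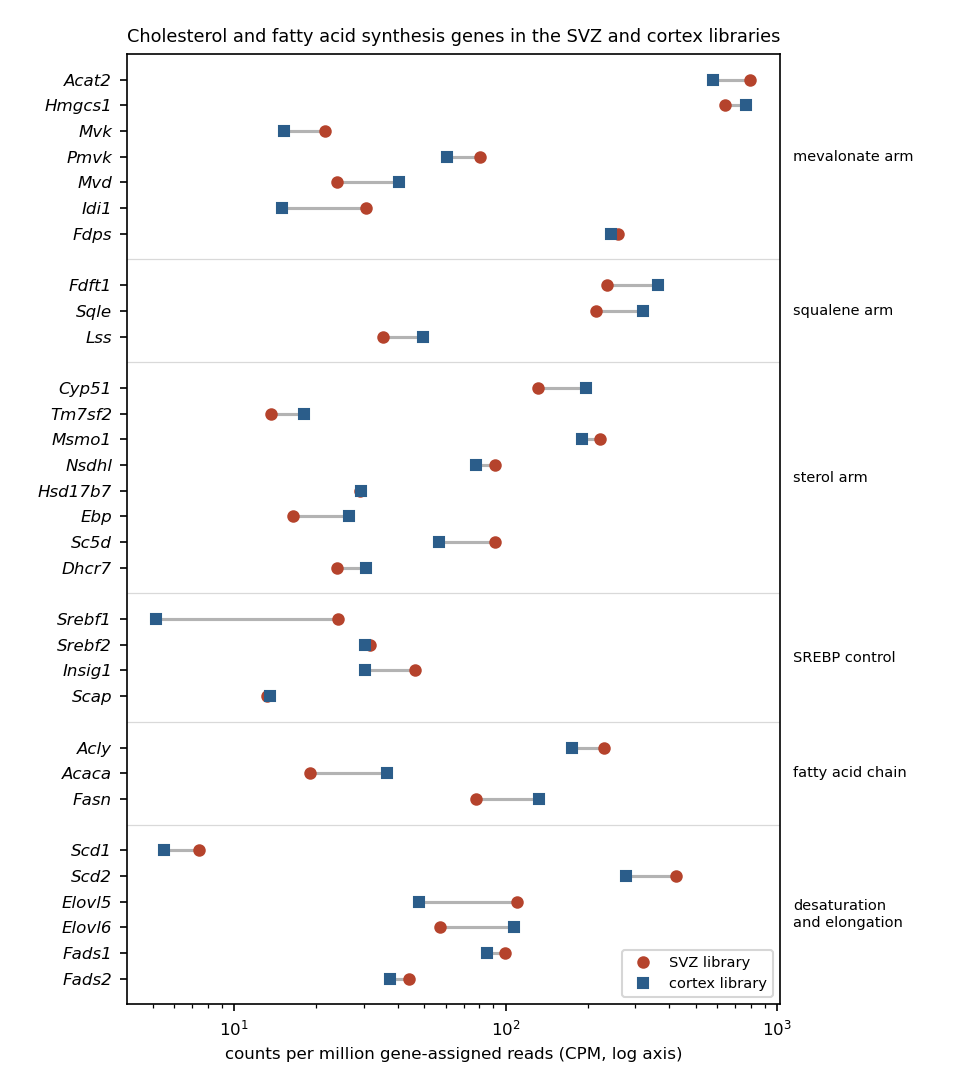
Level of each of the 31 genes in CPM (log axis) in the SVZ library (red circles) and the cortex library (blue squares), joined by a line and grouped by role. Most lines are short, and the widest gap is that of *Srebf1*, from 24.1 CPM in the SVZ library to 5.17 CPM in the cortex library.

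Although the total was balanced, the steps of the cholesterol pathway were not alike. The mevalonate arm makes the isoprenoid units from acetyl-CoA, and 5 of its 7 genes were higher in the SVZ library (background 55.2%). *Acat2*, the cytosolic thiolase that joins 2 acetyl-CoA molecules, had 40908 SVZ reads and 12717 cortex reads (795 and 577 CPM), a log2 ratio of 0.46 (0.43 to 0.49). Its neighbour and close relative *Acat3* had 58 and 12 reads in the unstranded column, which leaves out reads shared with the overlapping *Tcp1*, but 4269 and 1611 in the stranded columns. *Tcp1*, with 17124 and 6658 unstranded reads, gained 4442 and 1658 there, so the added reads cannot be assigned to *Acat3*. Reads that map equally well to several places were not counted, so the split of reads between *Acat2* and *Acat3* is uncertain. *Hmgcs1*, which makes HMG-CoA, went the other way with 33124 and 16937 reads (644 and 768 CPM) and a log2 ratio of -0.25 (-0.28 to -0.23). The 2 kinases that phosphorylate mevalonate were both modestly higher in the SVZ library. *Mvk* had 1112 and 336 reads (21.6 and 15.2 CPM; log2 ratio 0.50, 0.33 to 0.69), and *Pmvk* had 4142 and 1340 reads (80.5 and 60.8 CPM; log2 ratio 0.41, 0.32 to 0.50).

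The last steps of the mevalonate arm spanned its whole range of ratios. *Mvd*, the decarboxylase that forms isopentenyl diphosphate, had 1231 and 893 reads (23.9 and 40.5 CPM) and the lowest log2 ratio of the 18 enzymes, -0.76 (-0.88 to -0.63). *Idi1*, the isomerase of the next step, had 1573 and 330 reads (30.6 and 15.0 CPM) and the highest, 1.03 (0.86 to 1.21), an interval that reaches below 2-fold. *Idi1* thus lay 2.04-fold higher in the SVZ library and *Mvd* 1.69-fold above its SVZ level in the cortex library, although they act one after the other. *Fdps*, which joins the units into farnesyl diphosphate, a branch point to sterols, dolichol and protein prenylation, had 13375 and 5387 reads (260 and 244 CPM; log2 ratio 0.09, 0.04 to 0.14). *Fdps* lay at or just below 0 under TMM, upper-quartile and DESeq2 scaling. Per kilobase of transcript, *Acat2* (412 CPM per kb in the SVZ library, 299 in the cortex library), *Hmgcs1* (192 and 229) and *Fdps* (199 and 187) stood far above *Mvk* (16.3 and 11.5), *Mvd* (13.6 and 23.1) and *Idi1* (10.1 and 4.94) in both libraries.

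The squalene arm commits farnesyl units to sterols, and all 3 of its genes were higher in the cortex library by similar amounts. Each interval lay below 0 (background 39.5%). *Fdft1*, squalene synthase, had 12163 SVZ reads and 8035 cortex reads (236 and 364 CPM), a log2 ratio of -0.62 (-0.66 to -0.58). *Sqle*, the squalene epoxidase, had 10986 and 7040 reads (214 and 319 CPM), a log2 ratio of -0.58 (-0.62 to -0.54). *Lss*, which closes the ring to form lanosterol, had 1809 and 1095 reads (35.2 and 49.7 CPM), a log2 ratio of -0.50 (-0.61 to -0.39). In sum the 3 genes took 485 CPM (479 to 491) of the SVZ library and 733 CPM (722 to 745) of the cortex library, so the log2 ratio was -0.60 (-0.62 to -0.57). *Lss* overlaps *4930483K19Rik* on the opposite strand, and its ratio was -0.55 from the sum of the stranded columns.

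The sterol arm turns lanosterol into cholesterol. The interval lay above 0, towards the SVZ, for 3 of its 8 genes (background 49.8%) and below 0, towards the cortex, for 4 (background 39.5%). The demethylase *Cyp51* opens the arm with 6763 and 4344 reads (131 and 197 CPM) and a log2 ratio of -0.58 (-0.64 to -0.53), close to those of the squalene arm. *Tm7sf2*, a sterol reductase, had 703 and 400 reads (13.7 and 18.1 CPM; log2 ratio -0.41, -0.59 to -0.23). *Tm7sf2* overlaps *Vps51* on the same strand over 532 exon bases, so the stranded columns cannot recover reads that both genes share. The next enzymes, which remove the methyl groups at carbon 4, lay the other way or at 0. *Msmo1* had 11408 and 4195 reads (222 and 190 CPM; log2 ratio 0.22, 0.17 to 0.27), and *Nsdhl*, on chromosome X, had 4689 and 1710 reads (91.2 and 77.5 CPM; log2 ratio 0.23, 0.15 to 0.31). *Hsd17b7*, the ketoreductase of the same complex, had 1497 and 643 reads (29.1 and 29.2 CPM) and a log2 ratio of 0.00 (-0.14 to 0.13), so a difference was not detectable at this depth.

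The final steps of the sterol arm were again divided. *Ebp*, the isomerase, had 850 and 585 reads (16.5 and 26.5 CPM; log2 ratio -0.68, -0.84 to -0.53). *Sc5d*, the desaturase that follows it, had 4701 and 1249 reads (91.4 and 56.6 CPM) and the largest ratio of the arm towards the SVZ, 0.69 (0.60 to 0.78). *Dhcr7*, which reduces 7-dehydrocholesterol to cholesterol and is mutated in Smith-Lemli-Opitz syndrome, had 1222 and 675 reads (23.8 and 30.6 CPM; log2 ratio -0.37, -0.50 to -0.23). Summed over the arm, the opposed ratios nearly cancelled, with 619 CPM (612 to 626) in the SVZ library against 626 CPM (615 to 636) in the cortex library.

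**Figure D2:**
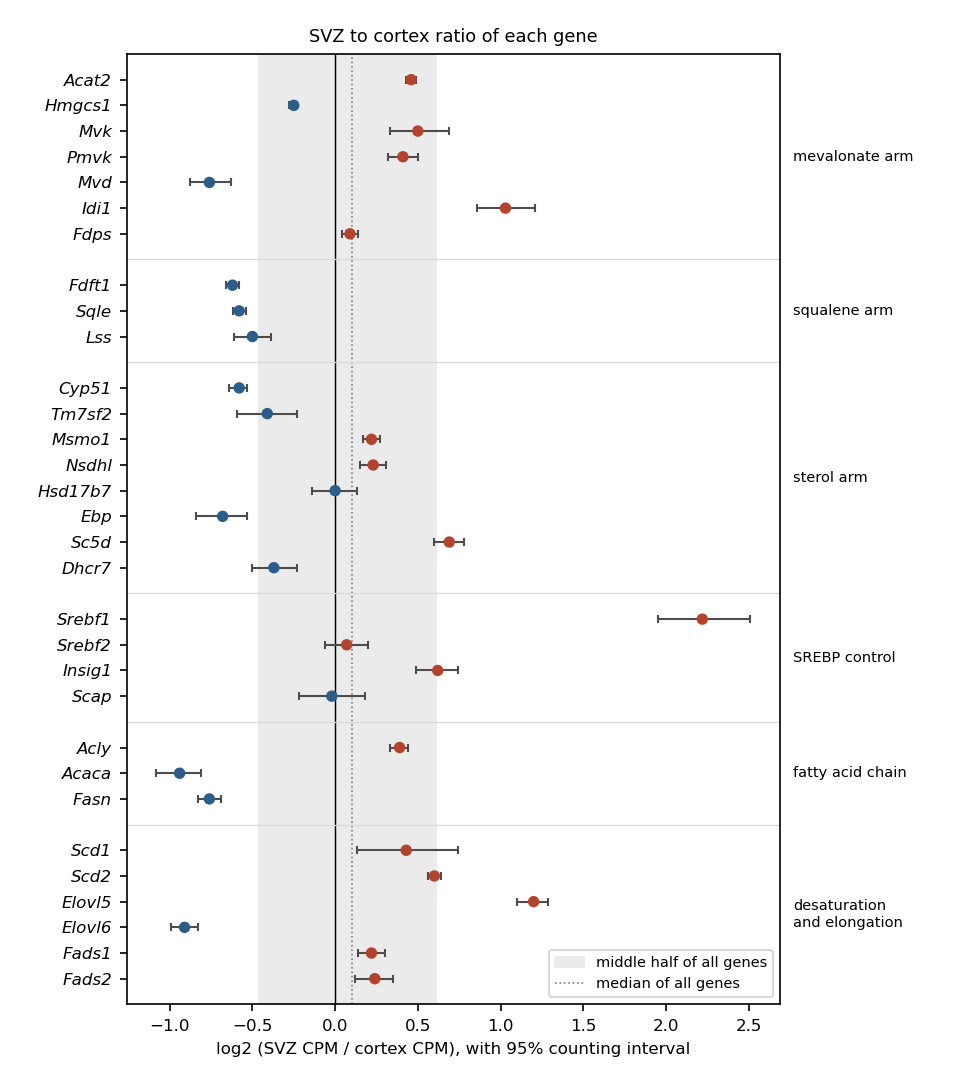
Log2 of SVZ CPM over cortex CPM for each gene, with its 95% counting interval. Red points lie above 0 and blue points at or below 0, the grey band spans the quartiles of the 9027 genes averaging 10 CPM or more (-0.46 to 0.61), and the dotted line marks their median (0.10). The 3 genes of the squalene arm lie together between -0.62 and -0.50, while *Srebf1* at 2.22 stands alone on the right.

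Of the 18 enzymes, 8 were higher (background 55.2%) and 10 lower in the SVZ library, *Hsd17b7*, at 0.00, among the latter. As a list the 18 enzymes had a median log2 ratio of -0.13, beside 0.10 over all genes, and a range of -0.76 to 1.03. Their summed level was 2960 CPM (2945 to 2975) in the SVZ library against 3080 CPM (3057 to 3103) in the cortex library, which gives a log2 ratio of -0.06 (-0.07 to -0.04). Without *Acat2* the ratio of the sums was -0.21. Within the reads of the 18 enzymes, which does not depend on the scaling of the libraries, *Acat2* took 26.9% (26.6 to 27.1) in the SVZ library against 18.7% (18.4 to 19.0) in the cortex library. *Hmgcs1* took 21.8% and 24.9%, so that these 2 entry enzymes held the largest shares in both libraries. *Fdft1* took 7.99% (7.85 to 8.13) and 11.8% (11.6 to 12.1), and *Sqle* 7.22% (7.09 to 7.35) and 10.4% (10.1 to 10.6). The cortex library thus gave a larger share of its cholesterol synthesis reads to the squalene arm, and the SVZ library a larger share to *Acat2*.

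**Figure D3:**
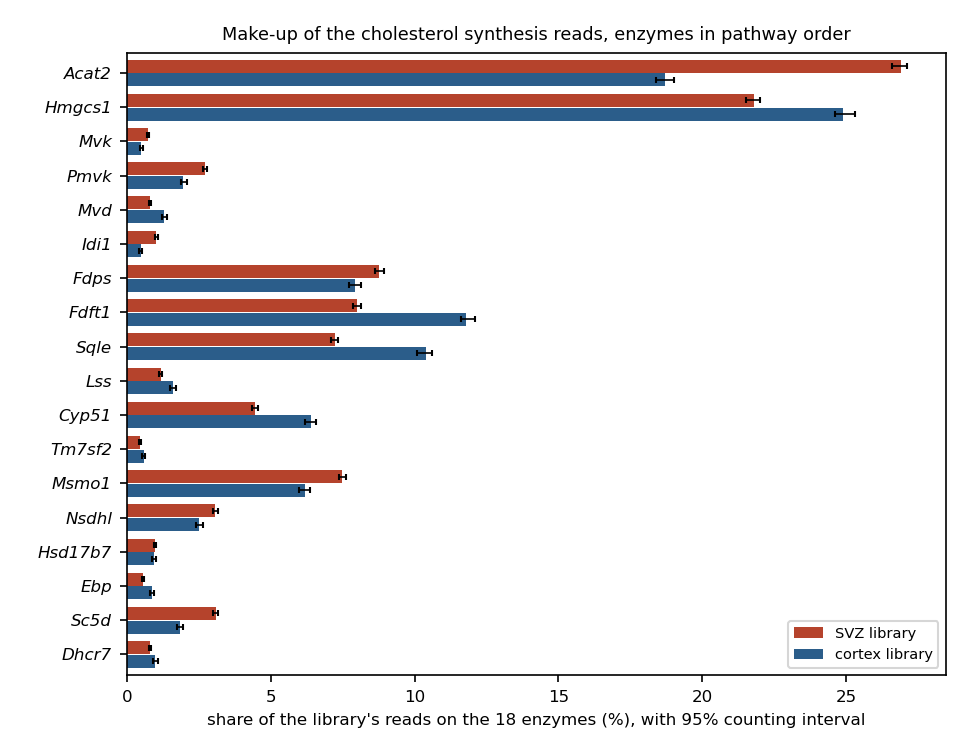
Share of the reads on the 18 cholesterol synthesis enzymes that each enzyme took in the SVZ library (red) and the cortex library (blue), in percent, with 95% counting intervals and enzymes in pathway order. *Acat2* takes 26.9% in the SVZ library against 18.7% in the cortex library, while *Fdft1* and *Sqle* take the larger share in the cortex library.

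Of the 4 control genes, *Srebf1* differed most between the libraries of all 31 genes. It encodes SREBP1, the form best known for driving fatty acid synthesis. *Srebf1* (GRCm38, chromosome 11, reverse strand) had 1242 SVZ reads and 114 cortex reads, or 24.1 and 5.17 CPM, a log2 ratio of 2.22 (1.95 to 2.51) and a 4.67-fold difference. Its exons overlap *Rai1* on the opposite strand, and unstranded counting sets aside reads that fall in both genes. When the stranded columns were added up, *Srebf1* and *Rai1* each gained 173 SVZ reads and 63 cortex reads, and the log2 ratio of *Srebf1* was 1.77, below 4-fold. Which gene of the pair the added reads came from cannot be told apart.

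*Srebf2*, which encodes SREBP2, the main driver of cholesterol synthesis, showed no such difference, with 1626 and 665 reads (31.6 and 30.2 CPM) and a log2 ratio of 0.07 (-0.06 to 0.20). Of the reads on both SREBP genes, *Srebf1* took 43.3% (41.5 to 45.1) in the SVZ library against 14.6% (12.2 to 17.3) in the cortex library. *Insig1*, a sterol-responsive retention factor and itself a SREBP target, had 2387 and 667 reads (46.4 and 30.2 CPM; log2 ratio 0.62, 0.49 to 0.74). *Scap*, the SREBP escort, had 681 and 297 reads (13.2 and 13.5 CPM; log2 ratio -0.02, -0.22 to 0.18). Differences in *Srebf2* and *Scap* were therefore not detectable at this depth, and the sign of *Srebf2* turned under TMM, upper-quartile and DESeq2 scaling.

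The 3 genes of the fatty acid chain did not all go the same way. *Acly*, which releases cytosolic acetyl-CoA from citrate, had 11826 SVZ reads and 3876 cortex reads (230 and 176 CPM), a log2 ratio of 0.39 (0.33 to 0.44). *Acaca*, the acetyl-CoA carboxylase that commits it to fatty acids, had 978 and 807 reads (19.0 and 36.6 CPM) and the lowest log2 ratio of the 31 genes, -0.94 (-1.08 to -0.81). *Fasn*, fatty acid synthase, had 3999 and 2911 reads (77.7 and 132 CPM; log2 ratio -0.76, -0.83 to -0.69). *Acaca* and *Fasn* thus stood 1.92-fold and 1.70-fold above their SVZ level in the cortex library.

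Among the genes that desaturate and lengthen fatty acids, 5 of 6 were higher in the SVZ library (background 55.2%). *Scd2*, the main stearoyl-CoA desaturase of the developing brain, had 21687 and 6119 reads (422 and 277 CPM; log2 ratio 0.60, 0.56 to 0.64). *Scd1*, its close relative in the same gene cluster, had 381 and 121 reads (7.41 and 5.49 CPM; log2 ratio 0.43, 0.13 to 0.74). *Scd2* took 98.3% (98.1 to 98.4) of the reads on both desaturases in the SVZ library against 98.1% (97.7 to 98.4) in the cortex library, intervals that overlap. Reads that both genes could share were not counted. The desaturases of polyunsaturated fatty acids were also near balance. *Fads1* had 5100 and 1876 reads (99.2 and 85.1 CPM; log2 ratio 0.22, 0.14 to 0.30), and its neighbour *Fads2* had 2266 and 824 reads (44.1 and 37.4 CPM; log2 ratio 0.24, 0.12 to 0.35).

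The 2 elongases among the 31 genes went opposite ways. *Elovl5*, which lengthens polyunsaturated chains, had 5637 and 1055 reads (110 and 47.8 CPM), a log2 ratio of 1.20 (1.10 to 1.29). *Elovl6*, which lengthens palmitate to stearate, had 2934 and 2367 reads (57.0 and 107 CPM), a log2 ratio of -0.91 (-0.99 to -0.83). *Elovl5* took 65.8% (64.8 to 66.8) of the reads on this pair in the SVZ library against 30.8% (29.3 to 32.4) in the cortex library. *Acaca*, *Fasn* and *Elovl6*, the enzymes that act in turn to build saturated chains, were the 3 members of the 9 fatty acid genes that were higher in the cortex library. The median log2 ratio of the 9 was 0.24, and their sums were 1066 CPM (1057 to 1075) in the SVZ library against 905 CPM (892 to 918) in the cortex library. Of these reads *Scd2* took 39.6% and 30.7%, and without *Scd2* the log2 ratio of the sums moved from 0.24 to 0.04.

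Further genes of lipid synthesis were compared next. Of 18 other synthesis and control genes, 8 lay on the SVZ side (background 55.2%) and 10 on the cortex side, with a median log2 ratio of -0.12. An average of 10 CPM was reached by 14 of them, of which 3 were higher by 2-fold or more in the SVZ library (background 14.9%) and 2 in the cortex library (background 12.3%). *Mid1ip1*, an activator of acetyl-CoA carboxylase, had the highest log2 ratio, 2.00 (1.87 to 2.13; 101 and 25.1 CPM), followed by *Elovl1* (1.65) and the acetyl-CoA synthetase *Acss2* (1.30). *Elovl7*, with a log2 ratio of 1.96 (3.71 and 0.952 CPM), and *Acat3*, with 1.05 (1.13 and 0.544 CPM), averaged under 10 CPM. *Acat3* overlaps *Tcp1* on the opposite strand, and its log2 ratio was 0.18 from the stranded columns, where that of *Tcp1* was 0.15. *Elovl1* overlaps *Cdc20* in the same way. In the stranded columns *Elovl1* gained 422 SVZ reads and 7 cortex reads, and its log2 ratio was 2.03. Whether these added reads came from *Elovl1* or *Cdc20* cannot be told apart. The 2 genes higher in the cortex library by 2-fold or more were *Me1*, malic enzyme (log2 ratio -1.83, -2.04 to -1.63), and *Elovl4*, the elongase of very long chains (-1.51, -1.58 to -1.44). A further elongase, *Elovl2*, also lay on the cortex side (128 and 188 CPM; log2 ratio -0.55, -0.60 to -0.49), unlike the member *Elovl5*. *Insig2*, the partner of *Insig1*, had a log2 ratio of 0.32 (0.23 to 0.41).

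Of 14 genes that take up, move or store sterols, 10 were higher in the SVZ library (background 55.2%). The median log2 ratio was 0.56, beside 0.10 over all genes. An average of 10 CPM was reached by 11 of them. Of these, 4 were higher by 2-fold or more in the SVZ library (background 14.9%) and 1 in the cortex library (background 12.3%). *Apoe*, the main lipoprotein carrier of the brain, had 6876 and 233 reads (134 and 10.6 CPM), a log2 ratio of 3.66 (3.47 to 3.86). *Abca1*, which loads cholesterol onto it, had 5209 and 249 reads (log2 ratio 3.16, 2.98 to 3.35), and the related exporter *Abcg1* had 9036 and 1731 (1.16, 1.09 to 1.24). The cholesterol ester enzyme *Soat1* had a log2 ratio of 1.61 (1.40 to 1.82). The receptors differed among themselves, since *Vldlr* was much higher in the cortex library (2001 and 5701 reads; log2 ratio -2.73, -2.81 to -2.66) and *Lrp8* was higher in the SVZ library (12159 and 2631 reads; 0.99, 0.93 to 1.05). *Mylip*, which marks these receptors for degradation, had 73 and 65 reads (log2 ratio -1.05, -1.56 to -0.55) and averaged under 10 CPM.

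Among the lipid lists, the largest ratios of single genes were found among those of fatty acid activation, binding and breakdown. Of 10 genes of fatty acid oxidation, 9 were higher in the SVZ library with an interval above 0, and the median log2 ratio was 2.02. Of the 8 that averaged 10 CPM or more, 7 had such an interval (background 49.8%) and 6 were at least 2-fold higher (background 14.9%). *Cpt1a*, which admits fatty acids to mitochondria, had 1741 and 24 reads (33.8 and 1.09 CPM; log2 ratio 4.96, 4.38 to 5.61), whereas *Cpt1c*, a neuronal relative, had 1106 and 496 reads (-0.07, -0.22 to 0.09). The acyl-CoA dehydrogenases *Acads* (3.63), *Acadl* (3.52) and *Acadm* (2.30) and the receptor *Ppara* (2.60) lay on the side of *Cpt1a*, *Acads* and *Ppara* at an average under 10 CPM. Of 10 genes that activate or bind fatty acids, 3 were higher in the SVZ library (background 55.2%), each by a wide margin. The median log2 ratio of the 10 was -0.44. Of the 9 averaging 10 CPM or more, 3 passed 2-fold towards the SVZ (background 14.9%) and 2 towards the cortex (background 12.3%). *Fabp7*, the fatty acid binding protein of radial glia and also among the progenitor markers, had 255784 and 861 reads (log2 ratio 6.99, 6.90 to 7.09), the acyl-CoA synthetase *Acsbg1* had 2621 and 20 (5.81, 5.18 to 6.53), and the acyl-CoA binding protein *Dbi* 78806 and 672 (5.65, 5.54 to 5.76). The remaining 7 of the 10 were higher in the cortex library, among them *Fabp3* (164 and 862 reads; log2 ratio -3.62, -3.87 to -3.37), *Acsl5* (-1.17) and *Acsl1* (-1.67), which averaged under 10 CPM.

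**Figure D4:**
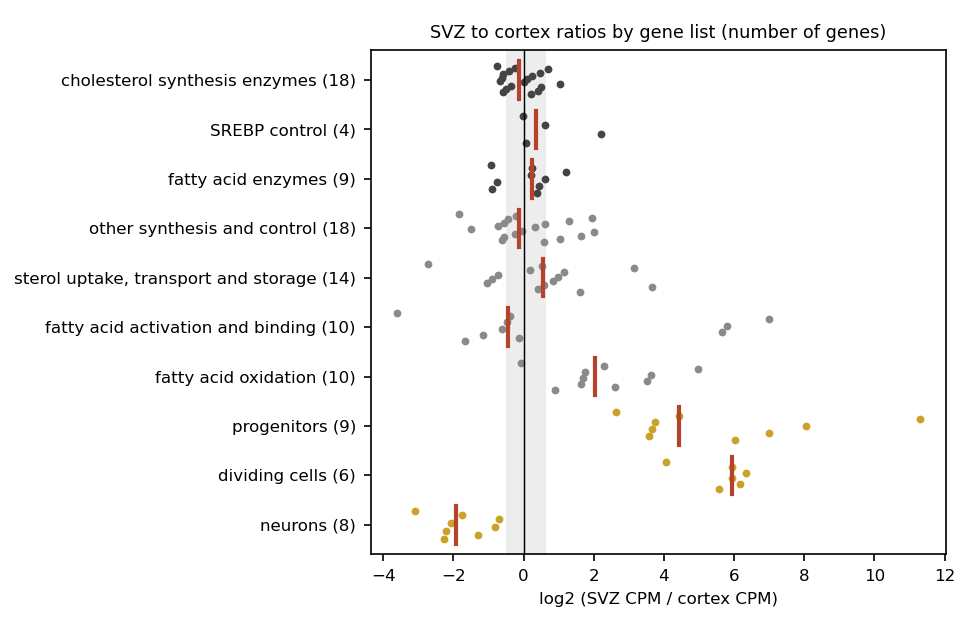
Log2 of SVZ CPM over cortex CPM for each gene of 10 lists, with the number of genes in brackets. Dark points are the 31 lipid synthesis and control genes, grey points related lipid genes and yellow points cell type markers, red bars are list medians, and the grey band spans the quartiles of all genes. The synthesis lists centre near 0 (medians -0.13 and 0.24), fatty acid oxidation at 2.02, progenitor markers at 4.43 and neuronal markers at -1.92.

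To see what the genes share in sequence, promoter windows from RefSeq (GRCm38.p6, from 250 bases before to 50 after a start site) were searched on both strands for motifs of factors known to act on these pathways. Windows were found for 25 of the 31 genes, 31 windows in all. *Fads1*, *Fdft1*, *Fdps*, *Scd1*, *Scd2* and *Sqle* had none. The CCAAT box (CCAAT), bound by NF-Y, which works with SREBPs, was held by 67.7% of these windows, beside 37.4% of all 32851 windows and 38.2% of the windows of genes averaging 10 CPM or more. The E-box (CACGTG) was held by 22.6%, beside 7.15% and 10.2%, and the GC box (GGGCGG), bound by Sp1, by 74.2%, beside 35.7% and 64.4%. A strict sterol regulatory element (TCACNCCAC) was found in the window of *Hmgcs1* only, or 3.23% of windows beside 1.24% and 1.12%. *Acaca* and *Elovl6* had no match to any of these motifs. Whether the motifs go with the ratios was not tested. These matches describe letters in short windows and were not tested as binding sites.

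Windows are printed for the gene with the sterol regulatory element (*Hmgcs1*, chr13:119690101-119690400, forward strand), the gene with the largest ratio (*Srebf1*, chr11:60222532-60222831, reverse strand, the most upstream of 3 windows), the elongase higher in the SVZ library (*Elovl5*, chr9:77917115-77917414, forward strand) and the cholesterol enzyme with the lowest ratio (*Mvd*, chr8:122443373-122443672, reverse strand). Each reads 5′ to 3′ on the strand of its gene, and capitals mark the matches on either strand.
Hmgcs1: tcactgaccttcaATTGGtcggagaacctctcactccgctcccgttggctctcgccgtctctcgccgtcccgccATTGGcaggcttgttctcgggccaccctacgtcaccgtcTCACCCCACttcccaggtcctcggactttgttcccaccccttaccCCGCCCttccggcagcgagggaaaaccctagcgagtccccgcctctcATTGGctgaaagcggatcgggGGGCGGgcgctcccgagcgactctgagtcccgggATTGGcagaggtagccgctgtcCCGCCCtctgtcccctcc
Srebf1: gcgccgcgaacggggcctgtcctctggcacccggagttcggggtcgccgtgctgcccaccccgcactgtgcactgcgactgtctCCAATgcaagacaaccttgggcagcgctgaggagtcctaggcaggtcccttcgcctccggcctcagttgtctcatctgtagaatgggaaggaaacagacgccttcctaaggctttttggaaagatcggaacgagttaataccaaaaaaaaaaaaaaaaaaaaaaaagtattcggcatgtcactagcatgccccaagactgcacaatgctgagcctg
Elovl5: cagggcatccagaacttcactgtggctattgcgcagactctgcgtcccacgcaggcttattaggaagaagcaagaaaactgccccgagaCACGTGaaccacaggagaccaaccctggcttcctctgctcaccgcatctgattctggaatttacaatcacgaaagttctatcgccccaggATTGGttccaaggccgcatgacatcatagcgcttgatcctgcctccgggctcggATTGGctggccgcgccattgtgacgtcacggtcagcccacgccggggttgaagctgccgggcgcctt
Mvd: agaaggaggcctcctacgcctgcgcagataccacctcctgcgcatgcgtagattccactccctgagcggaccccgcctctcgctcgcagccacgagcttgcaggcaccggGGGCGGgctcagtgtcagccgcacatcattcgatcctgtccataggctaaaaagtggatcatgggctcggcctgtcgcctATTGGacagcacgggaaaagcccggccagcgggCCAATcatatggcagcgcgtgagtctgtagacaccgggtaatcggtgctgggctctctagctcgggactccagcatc

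In *Hmgcs1* the sterol regulatory element begins at base -137 from the start site and stands among 4 CCAAT boxes and 3 GC boxes. The printed *Srebf1* window holds a single CCAAT box, at base -166, and a GC box was found elsewhere among the 3 windows of this gene. The counts sum over all start sites of *Srebf1* and do not separate them. *Elovl5* holds an E-box at base -161 and 2 CCAAT boxes. *Mvd* holds 2 CCAAT boxes and a GC box. *Mvd* and *Hmgcs1* had ratios on the cortex side, and *Srebf1* and *Elovl5* on the SVZ side. CCAAT and GC boxes thus occurred in windows of genes on both sides.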

How the data were processed

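RNA-seq counts of 2 LCM libraries, SVZ and cortex, were analysed. According to the study's methods and the submitters' processing notes, the authors trimmed reads with cutadapt 4.1, mapped read 1 to mm10 (equal to GRCm38) with STAR 2.7.9a and deposited its whole-read counts per gene, not normalized, in 3 columns (strand ignored, and each strand). Reads in several places or several genes are not in those counts. The authors' merged table of CPM, fold and log10 ratios was not used.

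The unstranded counts were scaled to CPM on the total of gene rows, without STAR's 4 summary lines. Ratios have no pseudocount. A gene was called where it passed 2-fold and averaged 10 CPM or more. The interval is that of the SVZ share of a gene's reads. Levels per kilobase used the median length of protein-coding transcripts in the GENCODE M21 basic set, where all 31 genes were found.

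Each of the 31 genes is named, related genes past 2-fold or paired with a member in role, and a few others with their list. Of the related genes, 3 are not reported here and were left out of the list counts. Members and lists were chosen with earlier results of these data known. Alternatives were size factors of DESeq2 1.42.0, upper-quartile and TMM factors of edgeR 4.0.16, stranded sums, totals that leave out the 10 most counted genes of either library, thinning of the SVZ library, a pseudocount of 1 CPM, and other filters, folds and summaries. Computation used Python 3.11.15 (matplotlib 3.10.9, pandas 2.3.3, scipy 1.17.1, numpy 2.4.6) and R 4.3.3. The ratios and intervals were run on simulated counts with Poisson error only, the error that the interval assumes. That run checks the computation only, since it held no PCR copies or variation between libraries.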

Additional observations from a re-analysis of the deposited data

How the results depend on the processing

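No paired analysis was possible because the SVZ and the cortex have 1 library apiece, which also leaves no replicate to omit. TMM, upper-quartile and DESeq2 scaling each moved the median of all genes by -0.10 (log2). Under each of them 2 genes, *Acaca* and *Elovl6*, were higher in the cortex library by 2-fold or more in place of 0, and *Idi1* lost its 2-fold call towards the SVZ, where the count of 3 became 2. That count was also 2 with totals that leave out the 10 most counted genes, with a pseudocount of 1 CPM and where the whole interval had to pass 2-fold. In plain CPM, a threshold of 1.5-fold gave 6 genes on the cortex side. Towards the SVZ the count of 3 became 6 at 1.5-fold, 1 at 4-fold and 0 among genes averaging 100 CPM or more, which tests fewer genes. The share of all genes past 1.5-fold was not computed, so neither count at that threshold has a background.

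The cholesterol median of -0.13 became -0.22, -0.23 and -0.22 under TMM, upper-quartile and DESeq2 scaling, and -0.25 without *Acat2*, which was left out after the data were seen. The log2 ratio of the cholesterol sums (-0.06) became -0.15, -0.16 and -0.15 under these scalings in turn, -0.09 with totals that leave out the 10 most counted genes and -0.21 without *Acat2*. That of the fatty acid sums (0.24) became 0.14 under each scaling, 0.20 with those totals and 0.04 without *Scd2*. With a mean in place of the median, the fatty acid list (0.24) gave 0.05 and the control list (0.34) gave 0.72. *Fdps* (0.09) lay at 0.00, -0.01 and 0.00 under the 3 scalings.

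Of 217 ratios of single genes recomputed under an alternative, 168 stayed within the counting interval. *Fdps*, *Hsd17b7* and *Srebf2* were the 3 genes whose sign changed. Depth limits *Scd1*, with 121 cortex reads, and *Srebf1*, with 114.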
